A study of Mus musculus with 12 samples.

Results

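The genes described here are 32 genes of cholesterol synthesis, of its control by sterols, and of sterol uptake, transport, efflux and storage. They were chosen by name, and each was found through its Entrez gene identifier among the 26305 identifiers of the deposited count table. All 32 passed the filter on low counts, as did 13499 identifiers in all. They comprise 20 enzymes from acetoacetyl-CoA to cholesterol, 5 genes of the sterol-sensing control system, 3 carriers that move sterol inside the cell, and 4 genes of efflux, receptor turnover and ester storage.

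Expression was measured by RNA-seq in mouse embryonic fibroblasts, primary connective tissue cells grown from whole embryos. The cells came from wild type male C57BL/6 embryos at embryonic day 13.5 and all groups grew in DMEM with 10% fetal bovine serum at 3% oxygen. The 4 groups were cells given 10 µM WM-2474 for 240 h or for 96 h, and cells given the DMSO vehicle for 240 h or for 96 h, with 3 biological replicates each. WM-2474 is a compound that the labels call an inactive control, and its structure is not given in the sources used here. Such cultures are a mixed population of embryonic cells that stop dividing after a limited number of passages, and passage number and pooling of embryos are not given in the sources used here. Harvest dates, medium changes and library batches are likewise not given, so treatment time cannot be told apart from anything else that differed between the 96 h and 240 h harvests.

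Cells build cholesterol from acetyl-CoA through mevalonate, isoprenoid diphosphates, squalene and lanosterol. When membranes of the endoplasmic reticulum are rich in sterol, INSIG proteins hold SCAP and its cargo, the SREBP transcription factors, in that membrane. When sterol is scarce, SCAP carries SREBP to the Golgi for cleavage, and the released factor raises transcription of nearly the whole synthesis pathway together with INSIG1 itself. Sterol excess acts through other factors, the liver X receptors, which oxysterols activate and which induce the efflux pumps ABCA1 and ABCG1 and the ubiquitin ligase IDOL. In fibroblasts, cholesterol supplies membranes for growth, and serum lipoproteins are the other source.

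Promoter windows from RefSeq (build GRCm38.p6, 250 bases before to 50 bases after an annotated start) were held for 25 of the 32 genes, in 33 windows. SREBP binds sterol regulatory elements together with the cofactors NF-Y and Sp1, so the windows were searched on both strands for a core of the sterol regulatory element, CACNCCAC, for its palindromic form TCACGTGA, for the NF-Y box CCAAT and for the Sp1 box GGGCGG, whose matches may share bases at their ends. The windows of 5 genes whose transcripts fell with time and of 1 gene that rose are shown here, because they span the pathway from its first enzyme to efflux. The windows shown include all 3 of the 33 that held the core, so they are richer in it than the rest. Capitals mark matches to the core and to the NF-Y box on either strand, and each sequence is read along its gene's strand. They lie at chr17:12960676-12960975, minus strand (Acat2), chr13:119690101-119690400, plus strand (Hmgcs1), chr5:114444019-114444318, plus strand (Mvk), chr19:6067801-6068100, minus strand (Tm7sf2), chr5:28071162-28071461, plus strand (Insig1) and chr4:53159846-53160145, minus strand (Abca1).
Acat2: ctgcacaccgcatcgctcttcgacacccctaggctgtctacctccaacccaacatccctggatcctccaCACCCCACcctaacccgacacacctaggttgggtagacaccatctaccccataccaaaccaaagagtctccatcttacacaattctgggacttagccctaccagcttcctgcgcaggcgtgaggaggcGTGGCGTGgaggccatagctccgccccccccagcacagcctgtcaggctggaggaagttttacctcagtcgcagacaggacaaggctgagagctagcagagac
Hmgcs1: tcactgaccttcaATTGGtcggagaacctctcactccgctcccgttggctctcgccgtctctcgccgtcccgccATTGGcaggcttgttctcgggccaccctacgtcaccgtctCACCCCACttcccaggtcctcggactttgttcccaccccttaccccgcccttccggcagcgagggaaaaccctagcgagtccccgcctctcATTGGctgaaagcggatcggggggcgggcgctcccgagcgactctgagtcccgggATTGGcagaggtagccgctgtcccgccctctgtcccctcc
Mvk: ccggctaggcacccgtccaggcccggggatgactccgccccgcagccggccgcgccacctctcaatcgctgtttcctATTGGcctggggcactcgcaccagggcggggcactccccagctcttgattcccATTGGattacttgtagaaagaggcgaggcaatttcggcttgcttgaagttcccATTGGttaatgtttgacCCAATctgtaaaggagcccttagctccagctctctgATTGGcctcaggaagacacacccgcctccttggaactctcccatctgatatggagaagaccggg
Tm7sf2: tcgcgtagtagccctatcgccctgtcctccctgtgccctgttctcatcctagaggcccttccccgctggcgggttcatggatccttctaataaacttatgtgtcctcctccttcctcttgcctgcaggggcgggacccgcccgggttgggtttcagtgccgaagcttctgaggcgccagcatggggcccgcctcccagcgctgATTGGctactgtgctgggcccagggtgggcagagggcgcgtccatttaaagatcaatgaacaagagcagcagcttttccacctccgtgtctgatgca
Insig1: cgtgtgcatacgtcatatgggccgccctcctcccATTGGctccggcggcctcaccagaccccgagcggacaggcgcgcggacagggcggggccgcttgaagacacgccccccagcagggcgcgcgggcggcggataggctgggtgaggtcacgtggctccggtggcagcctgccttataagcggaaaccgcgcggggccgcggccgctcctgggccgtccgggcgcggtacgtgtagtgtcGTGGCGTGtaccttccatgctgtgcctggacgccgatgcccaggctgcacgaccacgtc
Abca1: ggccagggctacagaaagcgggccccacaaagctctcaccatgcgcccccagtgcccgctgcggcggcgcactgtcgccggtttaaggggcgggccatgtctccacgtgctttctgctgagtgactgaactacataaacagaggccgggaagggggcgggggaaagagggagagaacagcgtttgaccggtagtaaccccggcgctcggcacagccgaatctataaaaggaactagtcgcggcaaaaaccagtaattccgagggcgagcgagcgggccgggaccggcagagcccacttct

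The core was found in 3 of the 33 windows (9.09%), those of Acat2, Hmgcs1 and Insig1, and in 6.24% of all 32851 windows of that length. The palindromic form was in 0 of the 33 windows and in 1.84% of windows of tested genes. The NF-Y box was found in 23 of the 33 windows (69.7%) and in 15 of the 19 windows of synthesis genes (78.9%), against 37.4% of all windows and 37.8% of the 13276 windows of tested genes. Of the 16 synthesis genes with a window, 15 held at least 1 NF-Y box, and Acat2 held none. Mvk carried 5 NF-Y boxes and Hmgcs1 carried 4. The Sp1 box was in 27 of the 33 windows (81.8%) and in 62.7% of windows of tested genes. Such matches describe letters in a window and are no measure of binding.

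Libraries held 7313007 to 26019167 counts. The floor for a gene at 0 was 3 counts, or 0.115 to 0.410 per 1000000 counts of the unscaled library total. Levels are given as CPM, which are counts per 1000000 of the scaled library size. Comparisons between genes are given as CPM per kilobase of exon (RPKM). Both measures were computed from the deposited counts. All 10 fibroblast markers had counts in every library. Markers of other cell types were low: adipocyte markers summed to 2.89 to 10.9 CPM, macrophage markers to 5.10 to 8.88 CPM and hepatocyte markers to at most 0.768 CPM, with the adipocyte genes Cidec and Lep and the hepatocyte genes Afp, Ttr and Serpina1a at 0 counts in all 12 libraries. The 15 B lineage markers summed to 16.1 and 16.98 CPM in replicates 1 and 2 of DMSO at 240 h, against 1.36 CPM in replicate 3 and 0.683 to 3.35 CPM in the 9 libraries of the other groups.

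Synthesis genes were among the more abundant members. In cells given DMSO for 96 h, Hmgcs1 was highest per length at 191 ± 10.2 RPKM (SD, n = 3), followed by Fdps at 161 ± 4.96 RPKM, Msmo1 at 149.7 ± 11.7 RPKM and Sqle at 142 ± 3.52 RPKM. Hmgcs1 stood above Fdps by more than their SDs, whereas Fdps and Msmo1, and Msmo1 and Sqle, did not differ beyond theirs. Insig1 stood at 129.9 ± 10.7 RPKM, Npc2 at 120.02 ± 3.57 RPKM, Srebf2 at 103 ± 6.87 RPKM and Srebf1 at 52.8 ± 5.47 RPKM. At the low end were Ggps1 at 8.56 ± 1.04 RPKM, Abca1 at 5.79 ± 0.212 RPKM and Abcg1 at 0.775 ± 0.102 RPKM.

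The first question was what happened to the pathway between the 96 h and 240 h harvests, under each treatment. With WM-2474, 24 of the 32 genes fell and 5 rose, and with DMSO 24 fell and 3 rose. Over all 13499 tested genes, 14.8% fell and 15.9% rose with WM-2474, and 17.3% fell and 17.5% rose with DMSO. The synthesis arm carried most of the falls: 19 of 20 enzymes fell in each treatment, by 33.6 to 68.5% with WM-2474 and by 35.4 to 69.2% with DMSO. Ggps1 was the exception. The median log2 change of the 20 enzymes was -1.02 with WM-2474 and -1.06 with DMSO, beside medians over all tested genes of 0.00 and -0.01. These calls are edgeR quasi-likelihood tests with Benjamini-Hochberg adjustment over all tested genes, and the largest adjusted p among the 19 enzymes was 9.9e-07 with WM-2474 and 3.6e-07 with DMSO. For each of the 19, every 240 h library lay below every 96 h library of its treatment, an arrangement that 21.2% of all tested genes showed with WM-2474 and 22.8% with DMSO.

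**Figure D1:**
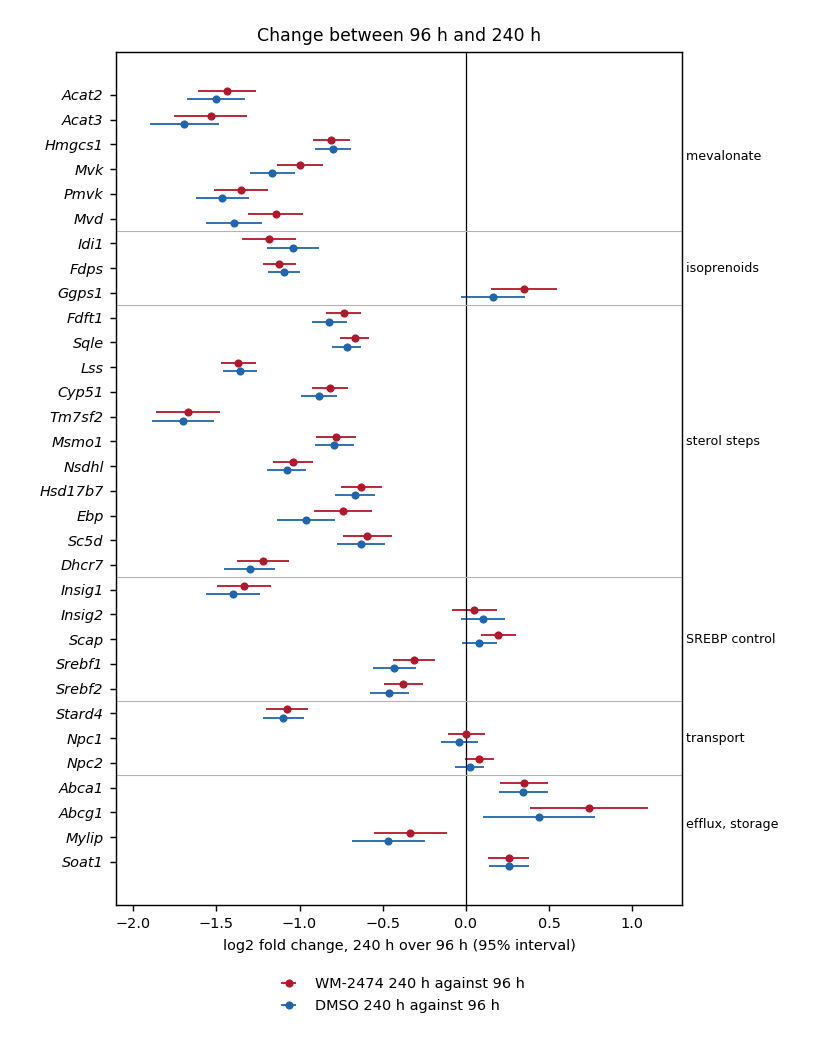
Change of each of the 32 genes at 240 h over 96 h, in log2 units on the x axis with 95% intervals, for WM-2474 (red) and DMSO (blue), with genes in pathway order down the page. From Acat2 to Dhcr7 all points but Ggps1 lie left of 0, down to -1.67 with WM-2474 and -1.70 with DMSO at Tm7sf2, and Abca1, Abcg1 and Soat1 lie right of 0. The signs of Insig2 and Npc2 in both treatments, of Scap with DMSO and of Npc1 with WM-2474 turned when libraries were scaled by their totals alone.

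Summed over the 20 enzymes, transcripts came to 1995, 1995 and 2141 CPM at 240 h against 3850, 3740 and 3899 CPM at 96 h with WM-2474 (replicates 1, 2 and 3 in that order, here and for every gene). With DMSO the sums were 2060, 1944 and 2152 CPM at 240 h against 4012, 3781 and 4208 CPM at 96 h. All 6 sums at 240 h were thus below all 6 at 96 h. The number of enzymes left at less than 50% of their 96 h level was 10 with WM-2474 and 11 with DMSO. In such bulk samples, fewer cells of a type and less RNA per cell cannot be told apart.

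The mevalonate steps came first in the pathway and held some of the steepest falls. Acat2, the cytosolic thiolase that condenses acetyl-CoA, had 73.7, 69.9 and 73.1 CPM at 240 h against 197, 179.99 and 208 CPM at 96 h with WM-2474. With DMSO it had 73.5, 64.3 and 79.2 CPM at 240 h against 211, 184 and 228 CPM at 96 h. Both treatments left well under 50% of the Acat2 transcript, with log2 changes of -1.44 ± 0.08 (SE) with WM-2474 and -1.503 ± 0.08 with DMSO. Pairs of log2 changes are given in this order of treatments for every gene that follows. Acat3 is its neighbour and near copy on chromosome 17. It had 9.98, 8.99 and 10.4 CPM at 240 h against 27.1, 26.4 and 31.1 CPM at 96 h with WM-2474, and 11.3, 8.29 and 11.3 CPM at 240 h against 35.1, 34.2 and 33.1 CPM at 96 h with DMSO. Acat3 fell alongside Acat2, with log2 changes of -1.53 ± 0.11 and -1.69 ± 0.10. Of the 31-base words in Acat2 transcripts, 43.8% also occur in Acat3, so the division of reads between this pair is uncertain. Acat3 also shares 571 exon bases with Tcp1 on the opposite strand, and Tcp1 had log2 changes of -0.04 with WM-2474 and 0.12 with DMSO, neither past the threshold.

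Hmgcs1 makes HMG-CoA, the substrate of the rate-limiting step. Its transcript stood at 339, 335 and 376 CPM at 240 h against 618, 599 and 621 CPM at 96 h with WM-2474, and at 356, 335 and 385 CPM at 240 h against 648, 587 and 641 CPM at 96 h with DMSO. This transcript had log2 changes of -0.81 ± 0.05 and -0.80 ± 0.05, with no overlap of libraries. Mvk, mevalonate kinase, had 71.8, 64.97 and 71.3 CPM at 240 h against 129.7, 143 and 142 CPM at 96 h with WM-2474. In DMSO cells Mvk had 66.97, 59.5 and 72.005 CPM at 240 h against 139, 153 and 158 CPM at 96 h. Libraries of 240 h and 96 h stayed apart in each treatment, at log2 changes of -0.998 ± 0.07 and -1.16 ± 0.07.

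Pmvk, phosphomevalonate kinase, had 30.2, 32.98 and 35.5 CPM at 240 h against 86.05, 79.1 and 86.4 CPM at 96 h with WM-2474, and 32.7, 28.1 and 34.8 CPM at 240 h against 90.2, 81.1 and 97.3 CPM at 96 h with DMSO. Mvd, which decarboxylates mevalonate diphosphate to isopentenyl diphosphate, had 74.3, 67.7 and 78.9 CPM at 240 h against 154, 159 and 174 CPM at 96 h with WM-2474. With DMSO, Mvd had 70.4, 57.2 and 69.1 CPM at 240 h against 164, 165 and 191 CPM at 96 h. Pmvk changed by -1.35 ± 0.08 and -1.46 ± 0.08 in log2 units and Mvd by -1.14 ± 0.08 and -1.39 ± 0.08, in WM-2474 and DMSO cells. The shallowest fall of the 6 mevalonate genes was that of Hmgcs1 in both treatments.

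The isoprenoid steps split. Idi1, the isomerase that interconverts isopentenyl and dimethylallyl diphosphate, had 20.6, 20.8 and 21.6 CPM at 240 h against 50.3, 46.6 and 45.8 CPM at 96 h with WM-2474, and 27.2, 22.01 and 24.8 CPM at 240 h against 53.4, 46.8 and 51.5 CPM at 96 h with DMSO. Fdps, which makes farnesyl diphosphate, the branch point to sterols and to protein prenylation, had 108, 109 and 107 CPM at 240 h against 234, 237 and 235 CPM at 96 h with WM-2474. Its DMSO values were 115, 103 and 113 CPM at 240 h against 234, 229 and 243 CPM at 96 h. Both genes were lower in every 240 h library, Idi1 by log2 changes of -1.18 ± 0.08 and -1.04 ± 0.08 and Fdps by -1.12 ± 0.05 and -1.09 ± 0.05. Reads of Idi1 and Fdps may be shared with other loci, since 27.1% of the 31-base words of Idi1 occur in other genes and 1124 exon bases of Fdps lie in Gm43738 on the same strand.

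Ggps1 makes geranylgeranyl diphosphate and leads out of the sterol branch. It had 21.8, 24.98 and 24.9 CPM at 240 h against 18.9, 18.7 and 18.8 CPM at 96 h with WM-2474, where all 240 h libraries were higher. With DMSO it had 25.5, 21.1 and 22.6 CPM at 240 h against 22.8, 17.9 and 20.1 CPM at 96 h, and the libraries overlapped. The change was 0.35 ± 0.10 in WM-2474 cells (adjusted p = 0.00673 in the edgeR quasi-likelihood test) and 0.16 ± 0.09 in DMSO cells (adjusted p = 0.184), and the difference between both changes had a 95% interval of -0.09 to 0.46. Scaling by library totals left a change of 0.21 with WM-2474, short of the threshold at an adjusted p of 0.0810 from edgeR. Ggps1 shares 257 exon bases with Arid4b on the opposite strand, and 14.9% of its 31-base words occur in other genes. Arid4b changed by 0.12 with WM-2474 and by 0.24 with DMSO, the DMSO value past the threshold.

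The committed sterol steps fell in each case. Fdft1, squalene synthase, had 132, 122 and 137 CPM at 240 h against 214, 218 and 218 CPM at 96 h with WM-2474, and 123, 119 and 132 CPM at 240 h against 221, 212 and 231 CPM at 96 h with DMSO. Sqle, squalene epoxidase and the first oxygen-requiring enzyme of the branch, had 230.01, 231 and 237 CPM at 240 h against 374, 360.1 and 374 CPM at 96 h with WM-2474. In DMSO cells, Sqle had 239, 232 and 243 CPM at 240 h against 391, 382 and 401 CPM at 96 h. These falls were among the milder ones, with log2 changes of -0.74 ± 0.05 and -0.82 ± 0.05 for Fdft1 and of -0.67 ± 0.04 and -0.72 ± 0.04 for Sqle. Fdft1 shares 774 exon bases with Ctsb on the opposite strand, and Ctsb changed by -0.02 with WM-2474 and by -0.06 with DMSO without passing the threshold.

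Lss, which closes the rings to form lanosterol, had 109.6, 108 and 121 CPM at 240 h against 285, 296 and 293 CPM at 96 h with WM-2474. Its DMSO libraries had 119, 115 and 123 CPM at 240 h against 300.4, 296 and 321 CPM at 96 h. With log2 changes of -1.37 ± 0.05 and -1.36 ± 0.05 and little spread, Lss ranked 4 by p among all 13499 genes with WM-2474 and 5 with DMSO. Cyp51, the demethylase that acts on lanosterol, had 284, 295 and 326 CPM at 240 h against 529.6, 521 and 543 CPM at 96 h with WM-2474, and 303, 294 and 309 CPM at 240 h against 561, 516 and 592 CPM at 96 h with DMSO. Its log2 changes were -0.82 ± 0.05 and -0.88 ± 0.05, shallower than those of Lss.

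Tm7sf2, a sterol C14 reductase, had the largest fall of the 32 genes in either treatment. It had 19.2, 15.3 and 17.6 CPM at 240 h against 52.1, 56.7 and 55.5 CPM at 96 h with WM-2474, and 18.97, 17.1 and 19.5 CPM at 240 h against 55.5, 58.3 and 69.5 CPM at 96 h with DMSO. The log2 changes were -1.67 ± 0.09 and -1.70 ± 0.09, which left 31.5% of the 96 h level with WM-2474 and 30.8% with DMSO. Exons of Tm7sf2 overlap those of Vps51 by 532 bases on the same strand, and Vps51 changed by -0.06 with WM-2474 and by -0.26 with DMSO, the DMSO value past the threshold.

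The demethylation of carbon 4 uses Msmo1, Nsdhl and Hsd17b7 in turn. Msmo1, the oxidase, had 146, 155 and 157 CPM at 240 h against 282, 246 and 261 CPM at 96 h with WM-2474, and 161, 151 and 161 CPM at 240 h against 279, 249 and 291 CPM at 96 h with DMSO. Nsdhl, the decarboxylating dehydrogenase, had 65.97, 67.6 and 72.5 CPM at 240 h against 145, 133 and 145 CPM at 96 h with WM-2474, and 68.1, 66.7 and 74.2 CPM at 240 h against 147, 142 and 156 CPM at 96 h with DMSO. Nsdhl fell more than Msmo1, with log2 changes of -1.04 ± 0.06 and -1.08 ± 0.06 against -0.78 ± 0.06 and -0.79 ± 0.06. Hsd17b7, the ketoreductase, had 97.4, 98.1 and 102 CPM at 240 h against 160.2, 146 and 154 CPM at 96 h with WM-2474, and 99.4, 92.2 and 103 CPM at 240 h against 168, 143 and 159.6 CPM at 96 h with DMSO. Hsd17b7 had one of the smallest falls, -0.63 ± 0.06 and -0.67 ± 0.06 in log2 units.

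Ebp, the sterol isomerase, had 28.4, 26.1 and 29.9 CPM at 240 h against 48.1, 44.6 and 47.2 CPM at 96 h with WM-2474, and 22.7, 23.8 and 27.8 CPM at 240 h against 44.9, 49.2 and 54.97 CPM at 96 h with DMSO. Sc5d, the C5 desaturase, had 91.9, 107 and 99.8 CPM at 240 h against 158, 140.2 and 153 CPM at 96 h with WM-2474, and 88.1, 98.3 and 106 CPM at 240 h against 159, 139.9 and 158 CPM at 96 h with DMSO. Sc5d fell least of the 19 enzymes, by log2 changes of -0.59 ± 0.07 and -0.63 ± 0.07, while Ebp changed by -0.74 ± 0.09 and -0.96 ± 0.08. Dhcr7, which reduces 7-dehydrocholesterol to cholesterol, had 39.6, 36.1 and 41.4 CPM at 240 h against 87.2, 90.5 and 93.4 CPM at 96 h with WM-2474, and 39.5, 36.4 and 41.4 CPM at 240 h against 87.5, 95.8 and 109 CPM at 96 h with DMSO. Its log2 changes of -1.22 ± 0.08 and -1.30 ± 0.07 placed this late reductase among the deeper falls.

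Genes of the control system did not move as one. Insig1, the retention protein that SREBP itself induces, had 121, 123 and 136 CPM at 240 h against 342, 301 and 313 CPM at 96 h with WM-2474, and 126, 117 and 143 CPM at 240 h against 348, 314 and 370.5 CPM at 96 h with DMSO. It fell as far as the enzymes, with log2 changes of -1.33 ± 0.08 and -1.40 ± 0.08. Its paralog Insig2 had 53.8, 49.4 and 53.7 CPM at 240 h against 50.7, 49.1 and 51.3 CPM at 96 h with WM-2474, and 59.04, 50.3 and 55.1 CPM at 240 h against 53.7, 49.7 and 49.6 CPM at 96 h with DMSO. The libraries of Insig2 overlapped, and it changed by 0.05 ± 0.07 and 0.10 ± 0.06, neither past the threshold (95% intervals -0.08 to 0.18 and -0.03 to 0.23). Scaling by library totals turned both signs of Insig2, to -0.08 with WM-2474 and -0.02 with DMSO.

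Srebf1, which encodes SREBP-1, had 184, 176 and 189 CPM at 240 h against 215, 235 and 230.5 CPM at 96 h with WM-2474, and 172, 158 and 174 CPM at 240 h against 202, 231 and 248 CPM at 96 h with DMSO. Srebf2, which encodes SREBP-2, the main activator of the synthesis genes, had 391, 348 and 374 CPM at 240 h against 466, 483 and 494 CPM at 96 h with WM-2474, and 360.3, 312 and 354 CPM at 240 h against 437, 478 and 499 CPM at 96 h with DMSO. Both transcripts fell modestly in each treatment without overlap of libraries, Srebf1 by log2 changes of -0.31 ± 0.06 and -0.43 ± 0.06 and Srebf2 by -0.38 ± 0.06 and -0.46 ± 0.06. Scap, the escort of SREBP, had 159, 157 and 147 CPM at 240 h against 138, 136 and 131 CPM at 96 h with WM-2474, and 140.2, 138 and 148 CPM at 240 h against 127, 138 and 139 CPM at 96 h with DMSO. Scap rose by 0.19 ± 0.05 with WM-2474 (adjusted p = 0.00457, edgeR) and changed by 0.08 ± 0.05 with DMSO (adjusted p = 0.242). Under library totals these became 0.06 with WM-2474, no longer past the threshold (adjusted p = 0.364, edgeR), and -0.04 with DMSO.

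**Figure D2:**
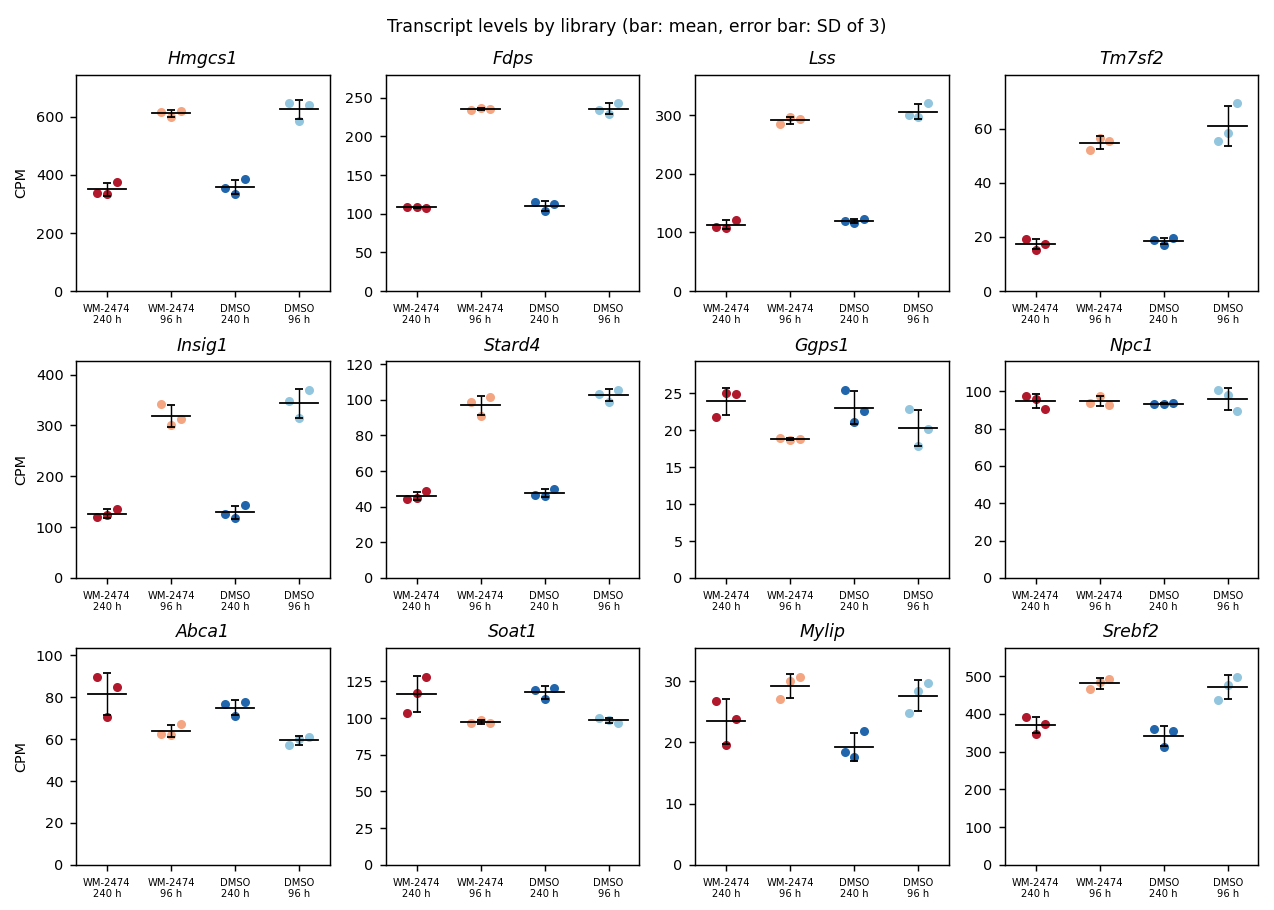
CPM of 12 of the genes in every library (points, y axis from 0), with the mean (long bar) and the SD of 3 libraries (error bar), in the order WM-2474 240 h, WM-2474 96 h, DMSO 240 h and DMSO 96 h. Hmgcs1, Fdps, Lss, Tm7sf2, Insig1 and Stard4 lie in separate bands by time, Npc1 has 1 band of overlapping libraries, and Abca1 and Soat1 lie higher at 240 h.

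Among the carriers, Stard4 alone changed. Stard4 carries sterol between membranes through the cytosol and is, like the enzymes, induced by SREBP-2. It had 44.5, 45.2 and 48.8 CPM at 240 h against 98.7, 91.002 and 101 CPM at 96 h with WM-2474, and 46.9, 45.9 and 49.9 CPM at 240 h against 103, 98.9 and 106 CPM at 96 h with DMSO. It fell by 52.5% with WM-2474 and fell by 53.2% with DMSO, with log2 changes of -1.07 ± 0.06 and -1.10 ± 0.06. Npc1 and Npc2, which release lipoprotein cholesterol from lysosomes, did not pass the threshold: the 95% intervals of the log2 change were -0.11 to 0.11 (WM-2474) and -0.15 to 0.07 (DMSO) for Npc1, and -0.01 to 0.17 and -0.06 to 0.11 for Npc2. These intervals exclude a fall of the size seen in any of the 19 enzymes. With library totals Npc1 changed by -0.13 with WM-2474 and by -0.16 with DMSO, the DMSO value then past the threshold, and Npc2 by -0.05 and -0.10.

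The efflux pumps moved the other way. Abca1, which loads cholesterol and phospholipid onto apolipoproteins, had 89.8, 70.5 and 84.8 CPM at 240 h against 62.5, 61.8 and 67.3 CPM at 96 h with WM-2474, and 76.7, 70.8 and 77.5 CPM at 240 h against 56.96, 59.9 and 61.2 CPM at 96 h with DMSO. All 240 h libraries were higher in each treatment, with log2 changes of 0.35 ± 0.07 and 0.35 ± 0.07 (adjusted p = 4.5e-04 and 4.8e-04, edgeR). Abcg1, a pump toward lipoprotein particles, was scarce at 5.75, 6.63 and 7.17 CPM at 240 h against 4.46, 3.70 and 3.41 CPM at 96 h with WM-2474, and 5.24, 7.34 and 6.10 CPM at 240 h against 5.14, 3.95 and 4.44 CPM at 96 h with DMSO. Its rise was 0.74 ± 0.17 with WM-2474 (adjusted p = 0.00158, edgeR) and 0.44 ± 0.16 with DMSO (adjusted p = 0.0385). The DMSO call of Abcg1 ended without replicate 2 or 3 of DMSO at 96 h, or without replicate 2 or 3 of DMSO at 240 h, at log2 changes of 0.35 to 0.47, and with library totals (0.32), no filter (0.43) or DESeq2 (0.45). Without the 2 DMSO libraries high in B lineage markers, which left 1 library of DMSO at 240 h, the change of Abcg1 was 0.42.

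Mylip encodes IDOL, the ligase that marks lipoprotein receptors for degradation, and is another target of liver X receptors. It had 26.8, 19.6 and 23.8 CPM at 240 h against 26.998, 29.998 and 30.7 CPM at 96 h with WM-2474, and 18.4, 17.5 and 21.8 CPM at 240 h against 24.8, 28.3 and 29.7 CPM at 96 h with DMSO. Mylip fell while Abca1 and Abcg1 rose, by log2 changes of -0.33 ± 0.11 and -0.47 ± 0.11 (adjusted p = 0.0187 and 0.0014, edgeR). The WM-2474 call ended without replicate 2 or 3 at 96 h, with changes of -0.32 and -0.30, or without replicate 2 at 240 h, with a change of -0.20. Without replicates 1 and 2 of DMSO at 240 h, which left 1 library there, the DMSO change was -0.33. Soat1, which esterifies cholesterol for storage in lipid droplets, had 104, 117 and 128 CPM at 240 h against 96.6, 98.6 and 96.6 CPM at 96 h with WM-2474, and 119, 113 and 121 CPM at 240 h against 99.99, 98.95 and 96.4 CPM at 96 h with DMSO. Soat1 rose by 0.26 ± 0.06 and 0.26 ± 0.06, and with library totals the values were 0.12 and 0.14, short of the threshold in both treatments.

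The time changes of the 32 genes in WM-2474 cells and in DMSO cells, which share no library, had the same sign for 31 genes and a Pearson r of 0.990 and a Spearman rho of 0.982 across genes. Genes are not independent replicates, and the harvests of both treatments share their time, so this is a description. The largest gap between both changes was 0.30, at Abcg1. The test of the difference between the time changes called 0 of the 32 genes and 0% of all tested genes with edgeR, with 1 member and 625 of all tested genes at an unadjusted p under 0.05, Mvd at 0.25 ± 0.11 (adjusted p = 0.977). DESeq2 also called 0 of the 32 genes. Without replicate 1 of DMSO at 96 h, 5 members and 1109 of 13660 genes had an unadjusted p under 0.05. Without replicate 3 of DMSO at 96 h, 0 members and 418 of 13656 genes did. The 95% interval of the difference was -0.37 to 0.09 for Idi1, 0.01 to 0.48 for Mvd, -0.07 to 0.17 for Sqle and -0.17 to 0.11 for Fdps, so the size that could be detected differed between enzymes.

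**Figure D3:**
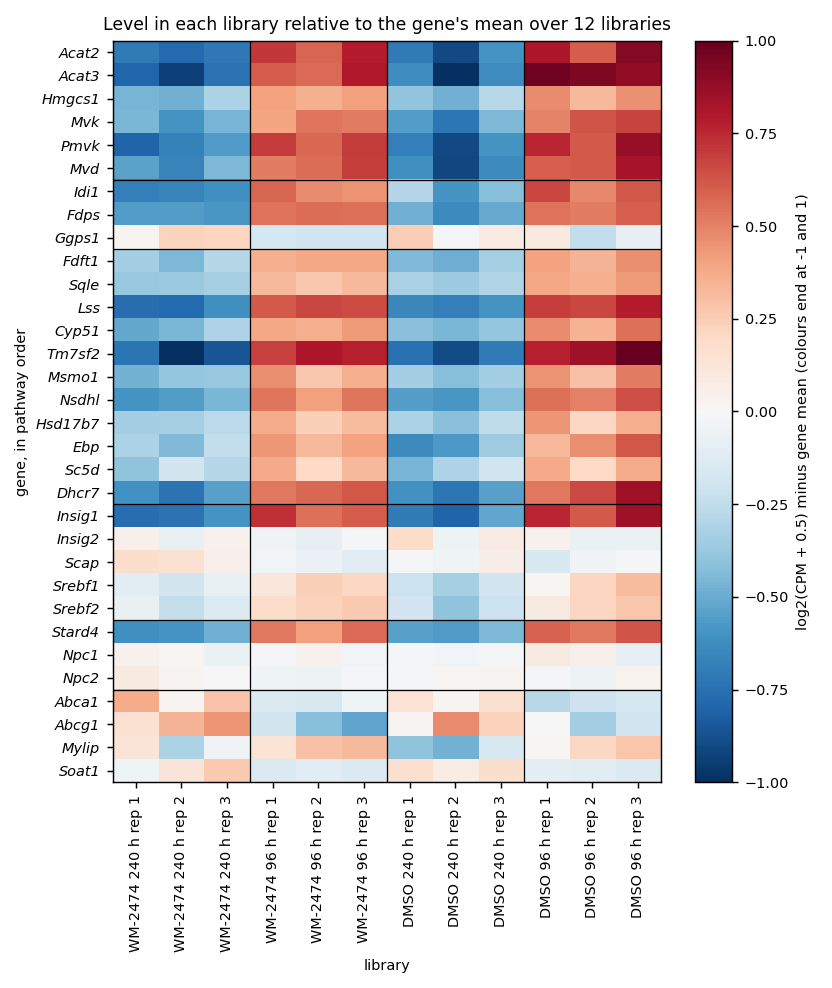
Level of each gene in each of the 12 libraries, as log2(CPM + 0.5) minus the gene's mean over all libraries, with genes in pathway order down the page and libraries along the x axis. Blue columns at 240 h and red columns at 96 h run through Insig1, Stard4 and every enzyme but Ggps1 in both treatments. Abca1 is mostly the opposite colour.

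Neighbouring genes of sterol handling were tested beside the 32, and those named here passed the threshold in each treatment whose value is given. Of 22 genes of uptake, lysosomal release, transfer, storage and oxidation, 5 rose and 9 fell with WM-2474 and 7 rose and 9 fell with DMSO, with a median log2 change of -0.11 in both. Over all tested genes, 15.9% rose and 14.8% fell with WM-2474, and 17.5% rose and 17.3% fell with DMSO. Scarb1, a receptor for high-density lipoprotein, changed by -0.73 ± 0.05 and -0.78 ± 0.05, and Lrp8, a receptor of the lipoprotein receptor family, by -1.001 ± 0.07 and -0.98 ± 0.07. Ch25h, which makes 25-hydroxycholesterol, an oxysterol that blocks SREBP processing, rose by 1.51 ± 0.18 and 1.72 ± 0.17. Lipa, the lysosomal acid lipase, rose by 0.34 ± 0.05 and 0.32 ± 0.05. Of 8 genes of sterol sensing and SREBP processing, 2 rose and 0 fell with WM-2474 and 1 rose and 0 fell with DMSO, beside 15.9% and 17.5% of all tested genes that rose. Among them was Mbtps1, the site 1 protease that cleaves SREBP, at 0.12 ± 0.04 and 0.13 ± 0.04. Paqr3, which anchors SCAP and SREBP in the Golgi, rose by 0.47 ± 0.18 with WM-2474, close to the threshold (adjusted p = 0.0491, edgeR). Its level was low, at 5.36 ± 0.23 CPM at 240 h against 3.81 ± 0.80 CPM at 96 h with WM-2474. Rises as small as that of Mbtps1 are about the size of the shift of the median of all genes under library totals, -0.14 with WM-2474 and -0.13 with DMSO.

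Of 14 genes of the isoprenoid branch outside sterol synthesis, 1 rose and 1 fell with WM-2474, and 3 rose and 2 fell with DMSO, with medians of -0.03 and -0.01. Over all tested genes the shares were 15.9% and 14.8% with WM-2474 and 17.5% and 17.3% with DMSO, so neither this list nor that of sterol sensing stood far from them. Icmt, which methylates prenylated proteins, rose by 0.30 ± 0.05 and 0.29 ± 0.05. The protease gene Rce1 changed by -0.24 ± 0.08 with WM-2474. With DMSO, Pggt1b and Fntb, subunits of prenyl transferases, changed by 0.28 ± 0.09 and -0.23 ± 0.09, and Pdss2, of ubiquinone side chain synthesis, by -0.34 ± 0.12.

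Cell cycle transcripts moved with time as well. All 14 genes of DNA replication and mitosis fell in each treatment, where 14.8% of all tested genes fell with WM-2474 and 17.3% with DMSO. Their median log2 changes were -0.52 with WM-2474 and -0.40 with DMSO. Their summed level was 836 to 935 CPM at 240 h against 1223 to 1288 CPM at 96 h with WM-2474. With DMSO it was 944 to 982 CPM at 240 h against 1226 to 1298 CPM at 96 h. Ccna2, cyclin A2, changed by -0.51 ± 0.05 and -0.45 ± 0.05. The summed fibroblast markers were 50858 to 52723 CPM at 240 h against 31395 to 37105 CPM at 96 h with WM-2474, and 48124 to 49635 CPM at 240 h against 31776 to 37316 CPM at 96 h with DMSO. The summed adipocyte markers were 2.89 to 5.21 CPM at 240 h against 8.32 to 10.9 CPM at 96 h with WM-2474, and 4.75 to 5.81 CPM at 240 h against 8.17 to 9.77 CPM at 96 h with DMSO. Endothelial markers summed to 1.83 to 3.01 CPM at 240 h against 5.04 to 6.06 CPM at 96 h with WM-2474, and to 2.72 to 3.54 CPM against 3.60 to 5.78 CPM with DMSO. Macrophage markers summed to 5.10 to 8.03 CPM at 240 h against 6.89 to 8.11 CPM at 96 h with WM-2474, and to 5.66 to 6.38 CPM against 8.50 to 8.88 CPM with DMSO, and epithelial markers to at most 5.45 CPM in any library. The part of these lists in the fall of the synthesis genes was not tested. Without replicates 1 and 2 of DMSO at 240 h, which stood apart in B lineage markers, 1 library was left in that group. The median log2 change of the 20 enzymes in DMSO cells was then -1.02, beside -1.06 with all libraries.

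The second question was whether WM-2474 itself, at a matched time, differed from the vehicle. At 96 h, edgeR called 0 of the 32 genes and 0% of all tested genes, and DESeq2 called 0 of the 32. An unadjusted p under 0.05 was seen for 2 of the 32 and for 283 of the 13499 tested genes. Without replicate 2 of DMSO at 96 h it was seen for 8 of the 32 and for 349 of 13689 genes. Without replicate 1 of DMSO at 96 h it was seen for 4 of the 32 and for 492 of 13660 genes. All 20 enzymes had negative log2 changes of small size, with a median of -0.08 beside 0.00 over all tested genes. Without replicate 3 of DMSO at 96 h, 18 of the 20 were negative and the median was -0.023. That fit kept replicate 3 of WM-2474 without its same-numbered partner. The summed enzyme transcripts were lower with WM-2474 in each same-numbered pair at 96 h. They came to 3850, 3740 and 3899 CPM with WM-2474 against 4012, 3781 and 4208 CPM with DMSO (replicates 1, 2 and 3). In 3 enzymes (Acat3, Sqle and Lss) the WM-2474 libraries lay below the DMSO libraries without overlap, which 3.83% of all tested genes did, and in 1 member (Abca1) they lay above, as did 3.62%. Acat3 had the smallest p, with 27.1, 26.4 and 31.1 CPM with WM-2474 against 35.1, 34.2 and 33.1 CPM with DMSO, a log2 change of -0.28 ± 0.08 (adjusted p = 0.99996, edgeR). The 95% interval of Acat3 was -0.46 to -0.11, the lowest of the 20 enzymes, and that of Sqle was -0.17 to 0.00.

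Replicates of the same number at 96 h deviated together, and in a fit of the 96 h libraries alone with the replicate number as a block, 12 of the 32 genes had an unadjusted p under 0.05, against 2 without the block, and 6.32% of all 13377 genes tested in that fit did. Of these 12, 11 were lower with WM-2474 (Acat2, Acat3, Mvk, Pmvk, Mvd, Sqle, Lss, Cyp51, Tm7sf2, Dhcr7 and Insig1) and Abca1 was higher. None of the 12 passed the adjusted threshold in this blocked edgeR fit, where Acat3 came closest at an adjusted p of 0.0880.

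At 240 h, edgeR again called 0 of the 32 genes, and of all tested genes 0.0296% were called higher and 0% lower. An unadjusted p under 0.05 was seen for 2 of the 32 and for 1099 of the 13499 tested genes. Without replicate 2 of WM-2474 at 240 h it was seen for 6 of the 32 and for 1211 of 13658 genes. Without replicate 3 of DMSO at 240 h it was seen for 5 of the 32 and for 1070 of 13682 genes. DESeq2 called 0 of the 32, but it gave no adjusted p for 10207 of the 13499 genes in this comparison. The enzymes were split, with 12 of 20 negative at a median of -0.02. The split rested on single libraries: 7 of 20 were negative without replicate 3 of DMSO at 240 h (median 0.03) and 15 without replicate 2 (median -0.06). Without the 2 libraries high in B lineage markers, which left 1 DMSO library at 240 h, 17 were negative (median -0.08). The smallest p was that of Idi1, with 20.6, 20.8 and 21.6 CPM with WM-2474 against 27.2, 22.01 and 24.8 CPM with DMSO. Idi1 was the 1 member whose WM-2474 libraries all lay below the DMSO libraries, as did 6.72% of all tested genes, and those of Srebf1 all lay above, as did 7.58%. The change of Idi1 was -0.23 ± 0.09 in log2 units (adjusted p = 0.521, edgeR). The lowest bound among the 20 enzymes was that of Idi1 (-0.41 to -0.05) and the highest that of Mvd (-0.03 to 0.33). For Fdps the interval was -0.13 to 0.07 at 240 h and -0.09 to 0.09 at 96 h, among the narrowest, and for Abcg1 it was -0.26 to 0.41 and -0.59 to 0.13.

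**Figure D4:**
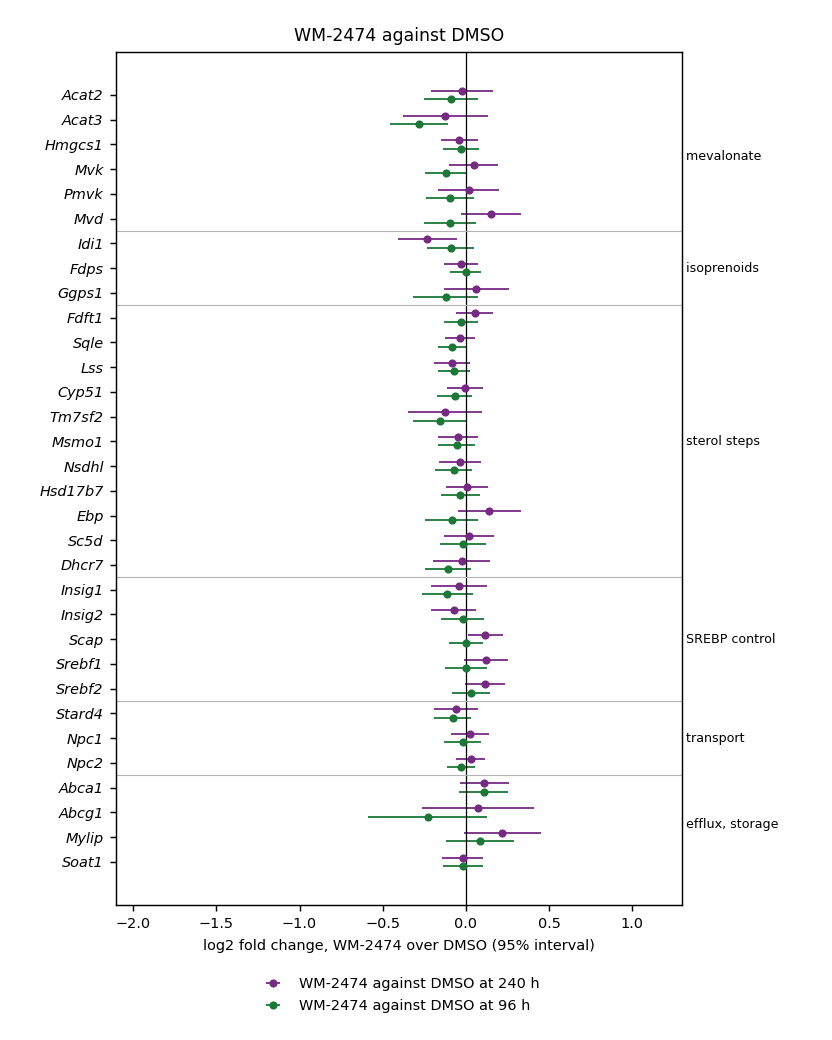
Difference of each of the 32 genes between WM-2474 and DMSO, in log2 units on the x axis with 95% intervals, at 240 h (purple) and at 96 h (green), with genes in pathway order down the page and the same x range as the plot of time changes. The points lie between -0.28 and 0.22, close to 0 beside the time changes, and at 96 h all 20 enzymes lie at or left of 0.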

How the data were processed

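Libraries of 12 fibroblast cultures (4 groups, 3 biological replicates each) were made with a stranded mRNA kit, per the labels. The authors deposited 1 table of raw counts per gene with exon lengths, made with featureCounts on mm10 per the submitters' processing notes. The aligner, versions, annotation, strand and multiple-mapping settings are not given in the sources used here. Of 27179 entries, 874 without a gene identifier (0.547 to 0.648% of counts) were left out. Symbols came from GRCm38.p6.

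Genes were filtered with filterByExpr by group (13499 kept) and scaled by TMM, whose factors ranged over 0.943 to 0.967 in the 240 h libraries and over 1.04 to 1.05 in the 96 h ones. A model with a coefficient for each group was fitted to all libraries in edgeR 4.0.16 (R 4.3.3, limma 3.58.1), and its quasi-likelihood F test, two-sided, was adjusted by Benjamini-Hochberg over all tested genes in each comparison, with a threshold of 0.05. The fit was also run on simulated counts with a common spread for all genes and no shared replicate effect, unlike these data. The outcome of that run is not reported here. Values after ± are standard errors beside log2 changes and standard deviations beside levels. Floors of 3 counts cover counting error only. Pairs of replicates differed beyond counting noise (chi-square per degree of freedom 2.02 to 4.99). Alternatives were DESeq2 1.42.0, its size factors, library totals, no filter, a replicate block, only the libraries compared, and leaving out each library. A further fit left out replicates 1 and 2 of DMSO at 240 h, with 1 library left in that group. Promoter matches and tables used Python 3.11.15, pandas 2.3.3 and scipy 1.17.1.

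Deviations from group means of same-numbered replicates correlated at 0.301, 0.235 and 0.191 between treatments at 96 h, all over the bound of 0.1 set for pairing, at 0.0397 to 0.114 between treatments at 240 h, and at -0.0078 to 0.132 between times, so the numbers were taken to pair samples at 96 h and nowhere else.

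The 32 members, the other gene lists and the tests were chosen with earlier results of these data known. All members are named. Values in every library are given for members past the threshold in any comparison and for the member with the smallest p where none passed, and of each other list up to 2 rising and 2 falling genes with the smallest p are named. The list of liver X receptors and their partners is not reported here. The promoters to print were chosen after their changes were known.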

Additional observations from a re-analysis of the deposited data

How the results depend on the processing

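All 19 enzymes that fell kept their fall and their call in both treatments under every alternative run, as did Insig1, Stard4, Srebf1, Srebf2 and the rise of Abca1. Scaling by library totals moved the median of all genes to -0.14 with WM-2474 and -0.13 with DMSO, and split the calls over all genes into 1097 higher and 4391 lower with WM-2474 (2147 and 1999 with TMM) and 1190 higher and 4381 lower with DMSO (2364 and 2330 with TMM). Under that scaling the members called higher were 2 with WM-2474 and 1 with DMSO, and the log2 changes turned in sign for Insig2 (-0.085 with WM-2474, -0.021 with DMSO), Npc2 (-0.054 and -0.10), Npc1 with WM-2474 (-0.13) and Scap with DMSO (-0.043). Npc1 with WM-2474, near 0 in any case, also turned with no filter (-0.0037), with only the libraries compared (-0.0014), with those and the replicate block (-0.0029), and ranged from -0.018 to 0.031 when single libraries were left out. Npc2 with DMSO ranged from -0.00017 to 0.040 in the same way. Left-out libraries gave 23 to 24 members lower and 5 to 5 higher with WM-2474, 24 to 24 lower and 2 to 4 higher with DMSO, and 0 in the comparisons of WM-2474 with DMSO. The DMSO call of Abcg1 was lost with no filter (adjusted p = 0.0514, edgeR) and in DESeq2 (adjusted p = 0.100), and Ggps1 passed with DMSO without replicate 1 of DMSO at 96 h (0.26, adjusted p = 0.0437, edgeR). The replicate block changed the call of no member. At 240 h the numbers were not taken to pair. A fit of those libraries alone with the block had 7 of 32 members at an unadjusted p under 0.05, beside 11.3% of its 12777 genes. Of the 7 members, 6 were higher with WM-2474 (Srebf1, Srebf2, Scap, Mylip, Mvd and Ebp) and 1 was lower (Idi1). Over all genes, WM-2474 against DMSO at 240 h had 4 higher and 0 lower calls. In DESeq2 it had 11 and 0, with no adjusted p for 10207 of the 13499 genes. With no filter it had 39 and 8, and with the block 7 and 0. With only the libraries compared it had 15 and 0, and with those and the block 79 and 12. At 96 h that last fit called 3 higher and 0 lower. The causes of these shifts were not tested.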

Other observations

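Within each group, the 19 enzymes that fell with time were ordered by library, as a description with no test. Of these, 17 had their lowest level of the DMSO 240 h group in replicate 2, and 15 had their highest in replicate 3. In the DMSO 96 h group 13 were lowest in replicate 2 and 14 highest in replicate 3. With WM-2474 at 240 h, 8 were lowest in replicate 1 and 10 in replicate 2, and 14 were highest in replicate 3. With WM-2474 at 96 h, 7 were lowest in replicate 1 and 11 in replicate 2. There 6 were highest in replicate 1, 4 in replicate 2 and 9 in replicate 3. In all 4 groups replicate 2 was most often lowest and replicate 3 most often highest. The spread of the summed enzyme transcripts over replicates was 84.3 CPM (SD, n = 3) around 2044 CPM with WM-2474 at 240 h, against 81.3 CPM around 3830 CPM at 96 h, and 104 CPM around 2052 CPM with DMSO at 240 h, against 213 CPM around 4000.15 CPM at 96 h.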
